A study of Homo sapiens with 6 samples.

Results

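The genes described here lie on the short arm of human chromosome 8, in bands 8p22 to 8p21. They are 50 listed symbols, from DLC1 at the telomere side to SLC25A37 at the centromere side, and they span 10.49 Mb (chromosome 8, 13083361 to 23575463, GRCh38). They were selected on chromosome position and on the fold changes between RN7SK-KO and control libraries, so those differences are a description and carry no test. Of the 50, 47 were among the 16779 genes of the deposited tables. SLC18A1, DOK2 and FAM160B2 were not analysed here. RNA-seq gene counts came from 6 libraries labelled A549, a line from a human lung adenocarcinoma: 3 with the genotype RN7SK knockout and 3 with the genotype WT, called control. RN7SK encodes 7SK, a small nuclear RNA that keeps the elongation kinase P-TEFb inactive. The labels do not say how many clones stand behind the knockout or whether replicates are separate cultures, so the spread between replicates may be technical.

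Genes of one chromosome segment share their copy number in a tumour cell, whereas each keeps its own promoter and regulators. The short arm of chromosome 8 is among the arms that carcinomas often lose, and several of its genes were first described as candidate tumour suppressors, among them DLC1, TUSC3, MTUS1 and LZTS1. The question asked of the counts was whether the segment differs as a whole between the groups or gene by gene. Copy number was not measured.

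Total counts were 16018260 to 18488790 in the libraries labelled RN7SK-KO and 18612303 to 19357144 in those labelled control. RN7SK itself was not among the genes analysed, so the targeted gene could not check the labels. CDKN2A and CDKN2B, cell cycle inhibitor genes that A549 cells are known to lack, summed to 0 to 0.123 CPM (read counts scaled to library size) in RN7SK-KO libraries and 60.7 to 65.2 CPM in control libraries. The control libraries thus went against their cell line label, and the groups are named by their labels throughout. Over the whole table, 85.0% of 12929 tested genes passed an adjusted p of 0.05 (edgeR quasi-likelihood test), 42.0% higher and 43.0% lower in RN7SK-KO. Passing this test therefore sets no gene apart. Of the marker lists for other cell types, 4 of 4 tested endothelial markers were lower in RN7SK-KO libraries. The sum of 8 markers was 4.19 to 4.92 CPM in RN7SK-KO libraries, against 162.5 to 175 CPM in control libraries. Most of the control sum came from ESAM (mean 110 CPM) and ENG (mean 54.6 CPM). The untested endothelial markers went the other way at few counts per group. KDR had 32 counts in RN7SK-KO and 5 in control, PECAM1 7 and 2, TEK 7 and 1, and VWF 8 and 0. The 2 tested fibroblast markers were higher (sum of 7 markers 21.6 to 24.2 CPM, against 4.81 to 5.97 CPM in control libraries), with COL1A2 and DCN at 0 in control. LUM, a fibroblast marker not tested, went the other way, with 7 counts over the RN7SK-KO and 22 over the control libraries. All 4 tested epithelial markers were higher (sum of 6 markers 5948 to 6060 CPM in RN7SK-KO, against 3287 to 3503 CPM in control). Of the epithelial markers not tested, EPCAM had 23 counts over the RN7SK-KO and 30 over the control libraries, and KRT19 4 and 3. The part of these differences in the results below was not tested.

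The listed members as a set were shifted upwards in the libraries labelled RN7SK-KO, but not evenly. They were selected on position and on these fold changes, so whether the segment differs as a whole was not tested. The 10 tested unlisted genes of the interval had median log2 fold changes of 0.42 in counts and -0.04 with length as an offset. Of the 47 members in the tables, 38 had enough counts to be tested, and their median log2 fold change (RN7SK-KO over control) was 1.06, against -0.01 over all tested genes. The quartiles of the members were -0.27 and 2.18, wider apart than the -0.61 and 0.71 of all genes. Of the 38, 27 were higher and 11 lower, where the background over all genes was 42.0% higher and 43.0% lower. At least 2-fold differences were found for 20 members higher and 4 lower, against 19.5% of all genes higher and 14.1% lower. The groups did not overlap in CPM for any of the 38, which was also true of 85.6% of all tested genes. A member with few counts could pass the filter only through the group where it is high, so these counts cover the tested members and not all 50. In bulk RNA, fewer cells that express a gene and less RNA per cell cannot be told apart.

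The median member stood at a similar level in each RN7SK-KO library. The members were selected on these same libraries, so this describes the spread between replicates and is no separate test. Relative to the mean of the control libraries, the median member stood at 1.10, 1.04 and 1.04 on the log2 CPM scale in RN7SK-KO replicates 1 to 3. In control replicates 1 to 3 it stood at 0.028, -0.019 and 0.022. The members together took 3020, 3024 and 3003 CPM in RN7SK-KO libraries and 2052, 1926 and 2032 CPM in control libraries.

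**Figure D1:**
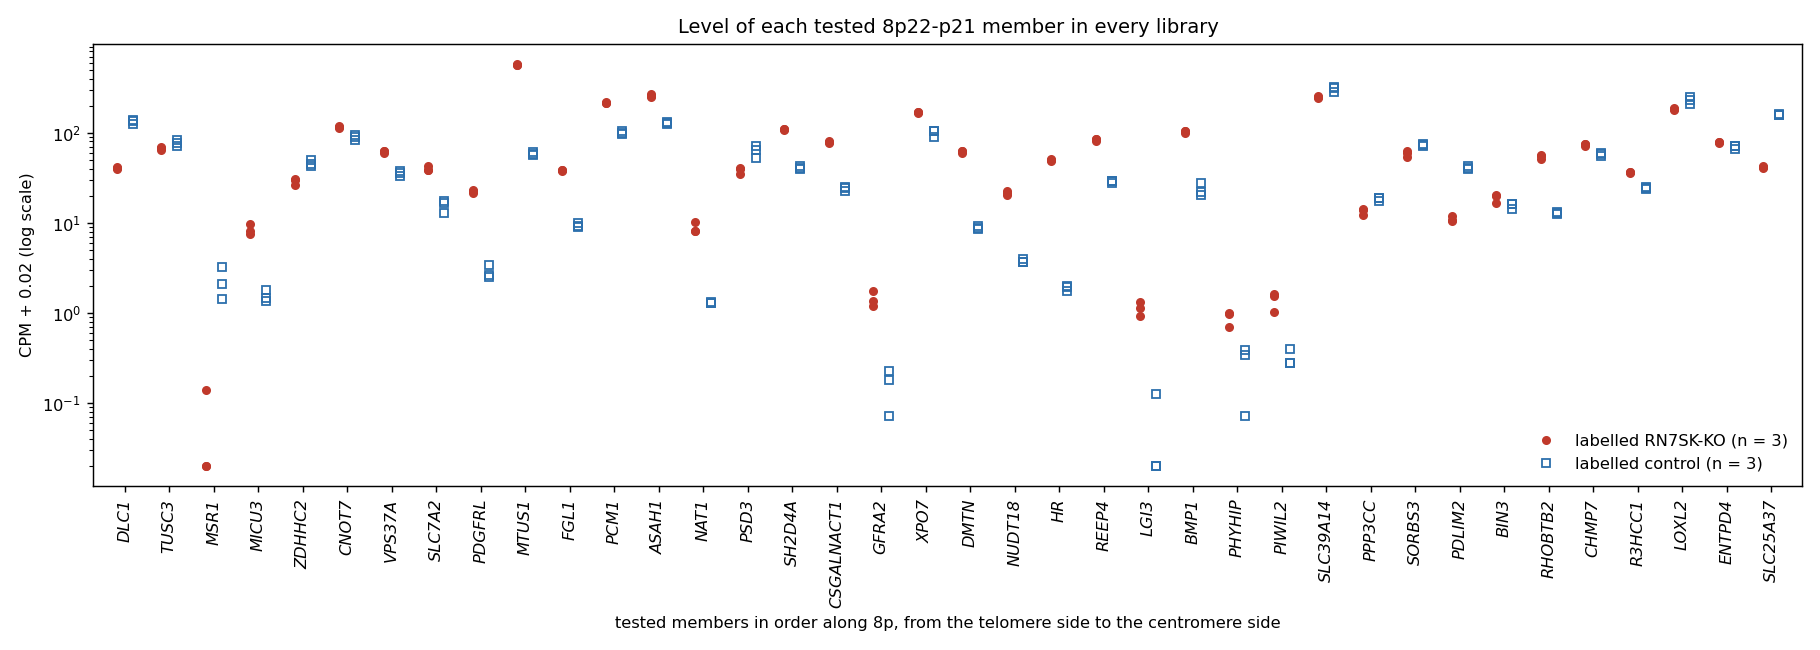
CPM plus 0.02 (log scale) of the 38 tested members in each library, in order along 8p, with filled circles for the 3 libraries labelled RN7SK-KO and open squares for the 3 labelled control. The groups do not overlap for any member, with 27 higher and 11 lower in RN7SK-KO, and MSR1, GFRA2, LGI3, PHYHIP and PIWIL2 stand under 5 CPM in every library.

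The rest of 8p was shifted in the same direction. Between the telomere and DLC1, 30 tested genes had a median log2 fold change of 0.87, with 23 higher and 2 lower. Between SLC25A37 and the centromere, 85 tested genes had a median of 0.81, with 64 higher and 12 lower. On the long arm, 8q, 294 tested genes had a median of 0.19, with 151 higher and 92 lower. Over all tested genes 42.0% were higher and 43.0% lower. The share of lower genes was 28.9% among the tested members, 6.67% in the flank towards the telomere and 14.1% in the flank towards the centromere. Other segments were picked with earlier results of these data known, so they do not stand for chromosome segments in general. In distal 9p, 45 tested genes had a median of 1.19 (80.0% higher and 2.22% lower). In 5p15, 42 tested genes had a median of -1.09 (19.0% higher and 78.6% lower). No test was made between segments, whose genes share the same 6 libraries.

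**Figure D2:**
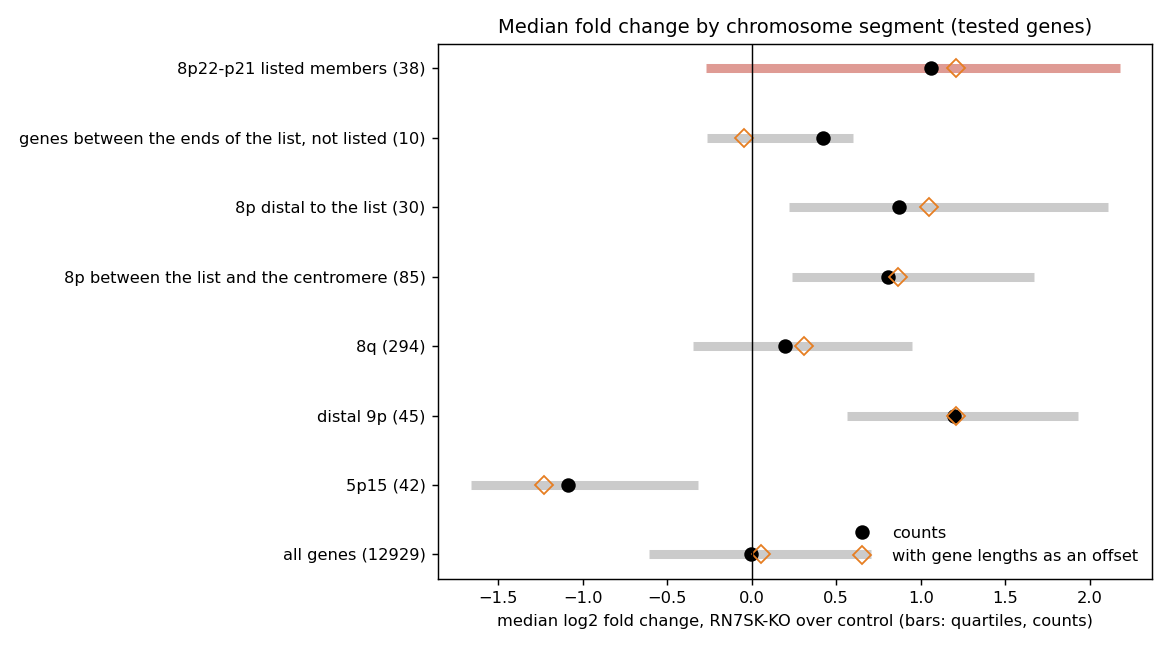
Median log2 fold change (RN7SK-KO over control) of tested genes by chromosome segment, number of genes in brackets, with bars for the quartiles, filled circles for counts and open diamonds for counts with gene length as an offset. The listed members (1.06) and both flanks on 8p (0.87 and 0.81) lie above 8q (0.19) and all genes (-0.01), and the bar of the listed members is the widest.

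The tables held 11 further genes between the ends of the list, of which 10 were tested. Their median log2 fold change was 0.42, and 7 were higher and 3 lower, where 42.0% of all tested genes were higher and 43.0% lower. With the gene length recovered from count and FPKM in each group as an offset, their median was -0.04, with 4 higher and 5 lower, so this direction holds in counts only. Taken with the members, the 48 tested genes of the interval had a median of 0.69. TNFRSF10B, a death receptor for the ligand TRAIL, averaged 317 ± 2.14 CPM in RN7SK-KO and 205 ± 16.4 CPM in control (SD, n = 3 each), and its decoy relative TNFRSF10C had a log2 fold change of 2.10 ± 0.319 (SE). TNFRSF10D, the other decoy receptor, was lower (-0.47), as were the open reading frame genes C8orf58 (-0.76) and C8orf48 (-0.91). C8orf48 lies inside DLC1, so reads of the pair may not be separable. ATP6V1B2, a subunit of the vacuolar proton pump, was higher by 0.50. POLR3D, a subunit of RNA polymerase III, the enzyme that makes 7SK, was higher by 1.30, but had -0.17 with gene length as an offset, its recovered length being 5336 bases in RN7SK-KO tables and 1929 bases in control tables. The difference between listed and unlisted genes of the interval was not tested.

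**Figure D3:**
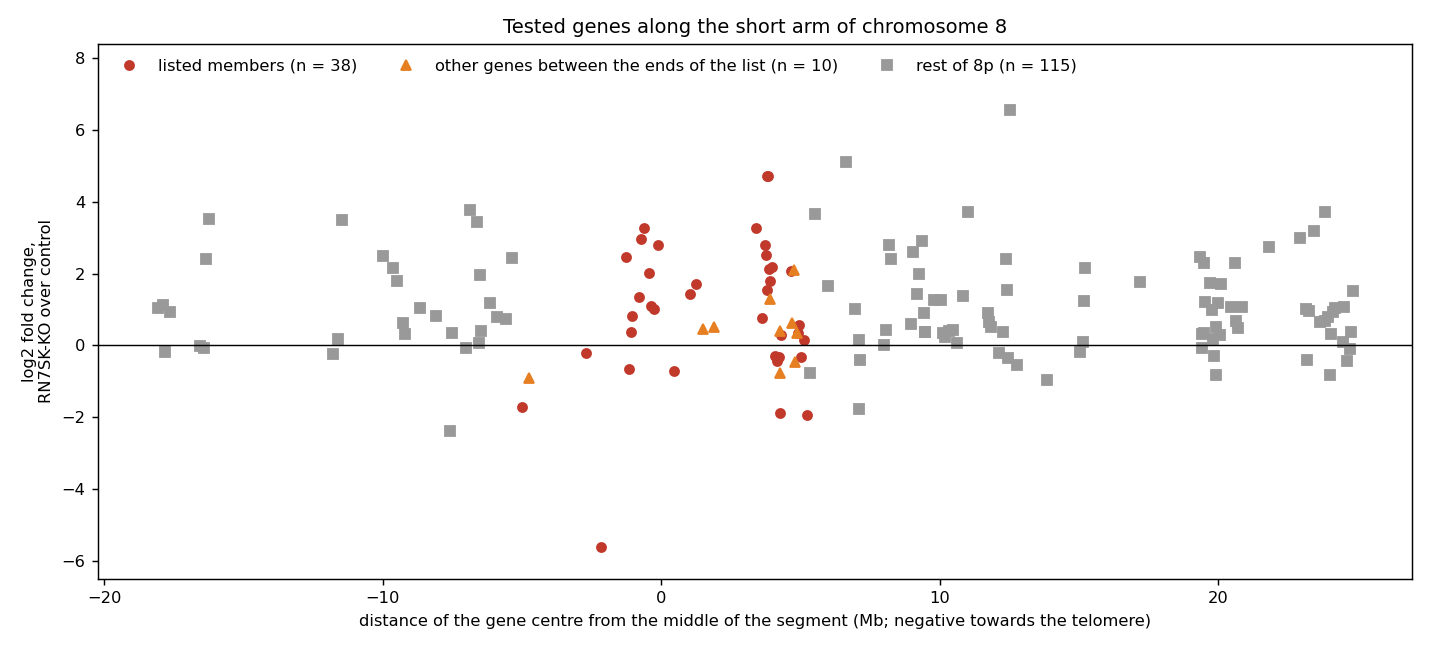
Log2 fold change (RN7SK-KO over control) of 163 tested genes of 8p against the distance of the gene centre from the middle of the segment, in Mb, with circles for the 38 listed members, triangles for the 10 other genes inside the interval and squares for the rest of the arm. Most points lie above 0 on both sides of the segment, and the lower members include those at both ends of the segment.

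In order along the segment, of 37 adjacent pairs of tested members, 27 had fold changes of the same sign, in 11 runs in counts, a description with no test of the order. The run from SH2D4A to PIWIL2 held 12 higher genes and that from CNOT7 to NAT1 held 9, with PSD3 as the one lower gene between them. The first 3 tested members, DLC1, TUSC3 and MSR1, were lower, as was the block of 4 from SLC39A14 to PDLIM2. With recovered gene lengths as an offset both of these lower runs were broken by sign, since TUSC3 had 0.03 and PPP3CC, inside the block, 0.08. Neither TUSC3 nor PPP3CC passed the test with the offset.

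The member with the most reads in RN7SK-KO libraries was MTUS1, which encodes a microtubule-associated protein (chromosome 8, 17643802 to 17801521). It had 558, 578 and 562 CPM in RN7SK-KO libraries, against 61.2, 57.5 and 56.5 CPM in control libraries, a log2 fold change of 3.28 ± 0.048 (SE). All RN7SK-KO libraries were about alike and far above every control library, and in the control libraries SLC39A14 had the most reads of the members, at 308 CPM on average. DMTN, the actin-bundling protein dematin (22048931 to 22082525), had 62.8, 62.9 and 60.2 CPM in RN7SK-KO libraries, against 8.53, 8.80 and 9.10 CPM in control libraries (2.81 ± 0.074). REEP4, which shapes the endoplasmic reticulum (22138020 to 22141907), had 86.2, 85.1 and 80.8 CPM in RN7SK-KO libraries, against 27.5, 29.4 and 29.3 CPM in control libraries (1.55 ± 0.060). PCM1, the scaffold of centriolar satellites (17922988 to 18029948), had 216, 212 and 218 CPM in RN7SK-KO libraries, against 104, 98.3 and 97.7 CPM in control libraries (1.11 ± 0.046).

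PDLIM2, a PDZ and LIM domain protein of the actin cytoskeleton, went the other way among these cytoskeletal genes. It had 12, 10.8 and 10.6 CPM in RN7SK-KO libraries, against 39.6, 40.6 and 42.5 CPM in control libraries, a log2 fold change of -1.88 ± 0.079. Its recovered length was 5861 bases in both groups, and the value with length as an offset was the same. SORBS3, the focal adhesion adaptor vinexin, was also lower (-0.31), whereas the ESCRT genes VPS37A (0.81) and CHMP7 (0.35) and the BAR domain gene BIN3 (0.29) were higher by smaller amounts. In all, 7 of 9 tested trafficking and cytoskeleton members were higher and 2 lower, with a median of 0.81. The share higher was 77.8%, near the 71.1% of all tested members, where 42.0% of all tested genes were higher. VPS37A overlaps MTMR7, which had 1 count over the RN7SK-KO and 2 over the control libraries, and BIN3 overlaps CCAR2 by 1097 bases, while the strand setting of the counting is not given in the sources used here.

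Of 7 tested secreted proteins, receptors and matrix enzymes, 5 were higher and 2 lower (median 2.14). The share higher was 71.4%, near the 71.1% of all tested members, where 42.0% of all tested genes were higher. BMP1, the protease that removes the C-terminal propeptide of procollagens (22165372 to 22212326), had 99.4, 104 and 105 CPM in RN7SK-KO libraries, against 22, 20.1 and 27.9 CPM in control libraries (2.14 ± 0.080). PDGFRL, a platelet-derived growth factor receptor-like protein (17576433 to 17643144), had 22.8, 21.4 and 23.1 CPM in RN7SK-KO libraries, against 2.65, 3.40 and 2.51 CPM in control libraries (2.97 ± 0.123). FGL1, a secreted fibrinogen-like protein (17864389 to 17895538), had 38.3, 37.8 and 38.3 CPM in RN7SK-KO libraries, against 10.1, 9.16 and 8.94 CPM in control libraries (2.02 ± 0.081). Its recovered length was 1666 bases in RN7SK-KO tables and 2544 in control tables, and its value with the length offset was 2.63. For all of these the lowest RN7SK-KO library was above the highest control library by more than 3-fold.

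LOXL2, a lysyl oxidase that crosslinks collagen (23296897 to 23404120), differed little although it took many reads. It had 179, 189 and 182 CPM in RN7SK-KO libraries, against 230.3, 208 and 247 CPM in control libraries (-0.32 ± 0.050). MSR1, the macrophage scavenger receptor, had 0, 2 and 0 counts in RN7SK-KO libraries, against 59, 40 and 27 counts in control libraries. The summed ratio of control to RN7SK-KO was 57.3, with a 95% exact counting interval of 15.5 to 478, which covers counting error only. The fitted log2 fold change of -5.61 rests on RN7SK-KO replicate 2 and was -8.35 without it. Of the haematopoietic markers, 3 of 3 tested were higher in RN7SK-KO libraries, where 42.0% of all tested genes were higher. The sum of 6 markers was 54.7 to 58.9 CPM in RN7SK-KO libraries, against 34.5 to 38.2 CPM in control libraries. Most of this sum came from CD68 alone (mean 47.7 CPM in RN7SK-KO and 33.5 CPM in control). CD3E was at 0 in every library and PTPRC at 0 in the control libraries. GFRA2, a co-receptor for the ligand neurturin, had 22, 29 and 22 counts in RN7SK-KO libraries, against 3, 1 and 4 counts in control libraries. LGI3, a secreted leucine-rich protein, had 17, 22 and 18 counts in RN7SK-KO libraries, against 0, 2 and 0 counts in control libraries, a ratio of 31.4 (95% interval 8.29 to 265). Its fitted log2 fold change was 4.72, or 7.31 without control replicate 2.

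Among enzymes, the acetyltransferase NAT1, which conjugates arylamine drugs (18170467 to 18223689), had 8.12, 10.3 and 8.12 CPM in RN7SK-KO libraries, against 1.30, 1.26 and 1.25 CPM in control libraries (2.79 ± 0.183). NUDT18, a nudix hydrolase (22106878 to 22110482), had 20.6, 22.4 and 21.5 CPM in RN7SK-KO libraries, against 3.67, 3.67 and 3.97 CPM in control libraries (2.51 ± 0.113). ASAH1, the lysosomal acid ceramidase (18055992 to 18084961), had 270.4, 255 and 248 CPM in RN7SK-KO libraries, against 130.5, 128 and 125 CPM in control libraries (1.01 ± 0.045). These enzymes were higher in each RN7SK-KO library, and their lengths agreed within 1% between groups for ASAH1 and NAT1. CSGALNACT1, which starts chondroitin sulfate chains (19404161 to 19757908), had 78.3, 77.1 and 80.7 CPM in RN7SK-KO libraries, against 24.2, 22.7 and 25.2 CPM in control libraries (1.71 ± 0.062). ENTPD4, a Golgi nucleotidase, was higher by 0.17 and PHYHIP, which binds phytanoyl-CoA hydroxylase, by 1.79 at under 1 CPM. TUSC3, a subunit of the enzyme that N-glycosylates proteins, and ZDHHC2, a palmitoyltransferase, were lower in counts (-0.21 and -0.66). In all, 6 of 8 tested members of this group were higher and 2 lower in counts, with a median of 1.36. In counts 71.1% of all tested members and 42.0% of all tested genes were higher. With gene length as an offset 7 of this group were higher and 0 lower, with a median of 1.37. ZDHHC2 then had 0.998 and TUSC3 0.03. Of the 38 tested members 28 were higher and 8 lower with the offset, where 44.6% of all genes were higher and 40.7% lower. The difference between this group and the other members was not tested.

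Transporters and mitochondrial proteins were divided. SLC7A2, a carrier of cationic amino acids (17494069 to 17570566), had 42.4, 38.7 and 38.8 CPM in RN7SK-KO libraries, against 17.6, 12.9 and 16.5 CPM in control libraries (1.35 ± 0.085). MICU3, a regulator of the mitochondrial calcium uniporter (17027238 to 17138640), had 7.58, 8.19 and 9.66 CPM in RN7SK-KO libraries, against 1.35, 1.78 and 1.46 CPM in control libraries (2.46 ± 0.179). Both were higher in every RN7SK-KO library. SLC25A37, the mitochondrial iron importer mitoferrin-1 (23528956 to 23575463), had 40.1, 41.4 and 42.3 CPM in RN7SK-KO libraries, against 157, 161 and 159 CPM in control libraries (-1.95 ± 0.052). SLC39A14, the zinc, iron and manganese importer ZIP14 (22367278 to 22434129), had 251, 258 and 246 CPM in RN7SK-KO libraries, against 324, 286 and 314 CPM in control libraries (-0.29 ± 0.046). Both iron carriers were lower in RN7SK-KO in counts. With gene length as an offset SLC25A37 had -0.36 and SLC39A14 -0.22.

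Signalling genes held 2 higher and 3 lower members of 5 tested in counts (median -0.44). The share higher was 40.0%, against 71.1% of all tested members and 42.0% of all tested genes. With gene length as an offset the median was 0.08, with 2 higher and 2 lower. Without and with the offset this median was the value of PPP3CC alone, which did not pass the test with the offset. DLC1, which switches off the GTPase RhoA (13083361 to 13604620), had 39.3, 40.6 and 41.8 CPM in RN7SK-KO libraries, against 136, 126 and 138 CPM in control libraries (-1.72 ± 0.055). RHOBTB2 (22950813 to 23020199) had 55.2, 56.1 and 51.2 CPM in RN7SK-KO libraries, against 12.4, 13.0 and 13.3 CPM in control libraries (2.07 ± 0.072). SH2D4A, an SH2 domain adaptor (19313693 to 19396218), had 111, 109 and 110.3 CPM in RN7SK-KO libraries, against 40.4, 39.6 and 42.5 CPM in control libraries (1.43 ± 0.054). PSD3, an exchange factor for the GTPase ARF6, and PPP3CC, a catalytic subunit of the phosphatase calcineurin, had -0.71 and -0.44 in counts, and PPP3CC had 0.08 with the offset.

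All 5 tested nuclear and RNA-binding members were higher (median 0.76), where 71.1% of all tested members and 42.0% of all tested genes were higher. The difference between this small group and the other members was not tested. HR, the nuclear corepressor hairless (22114419 to 22131052), had 48.0, 50.4 and 51.3 CPM in RN7SK-KO libraries, against 1.73, 1.94 and 1.99 CPM in control libraries, a 26.3-fold difference (4.72 ± 0.105). Among members with at least 5 CPM in either group this was the largest fold change. XPO7, a nuclear transport receptor, was higher by 0.76, R3HCC1 by 0.57 and CNOT7, a deadenylase of the CCR4-NOT complex, by 0.38. PIWIL2, a germline protein of the PIWI family, had 30, 17 and 25 counts in RN7SK-KO libraries, against 7, 5 and 5 counts in control libraries (2.19 ± 0.389).

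The other 9 members in the tables had too few counts for the test. FGF17, a fibroblast growth factor, had 14, 15 and 7 counts in RN7SK-KO libraries, against 0, 1 and 0 counts in control libraries, a ratio of 39.6 (95% interval 6.67 to 1607). FGF20, another fibroblast growth factor, had 8 counts over the RN7SK-KO libraries and 1 over the control libraries (ratio 8.80, 95% interval 1.18 to 390.4). NPM2, an oocyte histone chaperone, had 6 counts over the RN7SK-KO and 1 over the control libraries (ratio 6.60, 95% interval 0.801 to 304). SFTPC, the surfactant protein that marks alveolar type II cells, had 8 counts over the RN7SK-KO and 2 over the control libraries (ratio 4.4, 95% interval 0.878 to 42.5). The 8 alveolar type II markers present summed to 351.3 to 366.8 CPM in RN7SK-KO libraries, against 327.1 to 344.5 CPM in control libraries. Nearly all of this sum came from LPCAT1 (mean 276 CPM in RN7SK-KO and 253 CPM in control) and ABCA3 (83.5 and 81.6 CPM). Of 3 tested, 2 were higher and 0 lower, where 42.0% of all tested genes were higher. LPCAT1 was higher by 0.13 and NAPSA by 0.81 (mean 1.23 and 0.705 CPM), and ABCA3 did not pass the test. SFTPA1 and SFTPB were at 0 in every library. LZTS1 had 7 counts over the RN7SK-KO libraries and 0 over the control libraries, which is at least 2.57-fold higher when set against a floor of 3 counts over the group. NAT2, LPL, MTMR7 and SGCZ had 3 or fewer counts in each group, so no difference was detectable at this depth.

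Gene length entered the tables differently in the 2 groups and changes some of these values. The length behind each FPKM value (fragments scaled to gene length and depth), recovered from count and FPKM, was known in both groups for 43 members. It was shorter by over 1% in the RN7SK-KO tables for 28, longer for 5 and within 1% for 10. ZDHHC2 had 4023 bases in RN7SK-KO tables and 12729 in control tables, and its log2 fold change was -0.66 in counts but 0.998 with length as an offset. SLC25A37 had 2743 bases in RN7SK-KO tables and 8244 in control tables, and its value was -1.95 in counts but -0.36 with the offset. CHMP7 had 3621 bases in RN7SK-KO tables and 6483 in control tables, and its value was 0.35 in counts but 1.19 with the offset. TUSC3 had 9376 bases in RN7SK-KO tables and 11128 in control tables, and its value was -0.21 in counts but 0.03 with the offset. PPP3CC had 2246 bases in RN7SK-KO tables and 3231 in control tables, and its value was -0.44 in counts but 0.08 with the offset. For these 3, ZDHHC2, TUSC3 and PPP3CC, the lower direction held in counts and not with the offset. With the offset ZDHHC2 passed the test as higher, and TUSC3 and PPP3CC did not pass.

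**Figure D4:**
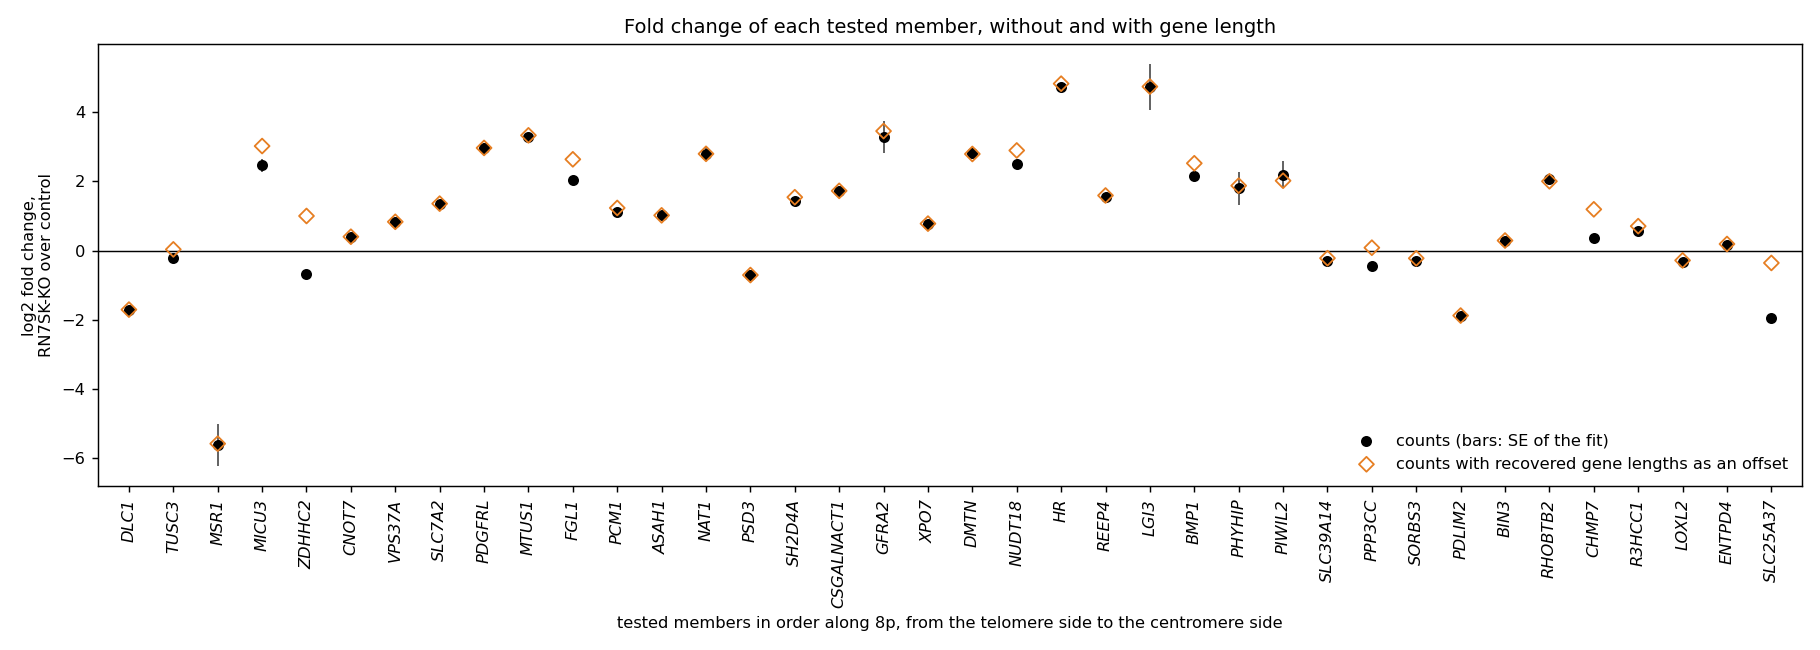
Log2 fold change (RN7SK-KO over control) of the 38 tested members in order along 8p, with filled circles for counts, bars for the SE of the fit (often smaller than the circle) and open diamonds for counts with recovered gene lengths as an offset. Most diamonds lie on their circle, while ZDHHC2, TUSC3 and PPP3CC lie on opposite sides of 0 and SLC25A37 and CHMP7 differ by over 0.8.

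The median of the members stayed above that of all genes when lengths entered. With length as an offset the median over the 38 members was 1.21 (28 higher and 8 lower, where 44.6% of all genes were higher and 40.7% lower), against 0.06 over all genes. Among the 9 tested members whose lengths agreed within 1%, 7 were higher and 2 lower (median 1.35), where the background was 42.4% higher and 42.7% lower.

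On a per-length scale, the highest level among the members in RN7SK-KO libraries was that of ASAH1, at 79.3 ± 3.21 FPKM in RN7SK-KO and 38.5 ± 0.954 FPKM in control (SD, n = 3 each). REEP4 had 50 ± 1.41 FPKM in RN7SK-KO and 16.3 ± 0.566 FPKM in control. LOXL2 had 48.9 ± 1.21 FPKM in RN7SK-KO and 58.4 ± 4.93 FPKM in control, the highest level in the control group. MTUS1 had 46.6 ± 0.801 FPKM in RN7SK-KO and 4.56 ± 0.212 FPKM in control. These 4 levels in RN7SK-KO libraries fall in the order given, but REEP4 and LOXL2 differed by less than the sum of their SDs.

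Relatives of the members at other places in the genome were compared as well. Of 33 tested paralogs, 11 were higher and 16 lower in RN7SK-KO libraries, with a median log2 fold change of -0.17. These are 33.3% and 48.5%, where 42.0% of all tested genes were higher and 43.0% lower. The calcineurin subunits PPP3CA and PPP3CB had 0.55 and -0.34. SLC39A8, a close relative of SLC39A14, was higher by 1.25, where SLC39A14 had -0.29. SLC25A28, the second mitoferrin, had 0.06 and did not pass the test. Other paralogs had the sign of their member, such as STARD13 (-1.63) with DLC1 (-1.72) and RHOBTB1 (1.63) with RHOBTB2 (2.07). Their further relatives STARD8 (0.34) and RHOBTB3 (-0.05) did not pass the test.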

How the data were processed

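RNA-seq counts per gene symbol were deposited by the authors for each of 6 libraries as whole numbers without normalization, together with FPKM, in which the authors divided by gene length and library total. HISAT2 2.2.1.0, Trimmomatic 0.36, FastQC 0.11.5 and GRCh38 appear in the submitters' processing notes. Counter, annotation and strand setting were not given in the sources used here. Per the labels' protocols, RNA was extracted with TRIzol. Counts were filtered with filterByExpr, scaled by TMM and compared in edgeR 4.0.16 (R 4.3.3) with glmQLFit and glmQLFTest, two-sided, Benjamini-Hochberg adjusted over 12929 genes. The SE is the absolute fold change divided by the square root of the F statistic. The code was tested on simulated data. Lengths were recovered from count and FPKM with the library total that makes them whole within 0.05 bases. Positions are from RefSeq (GRCh38.p14), with 8p ending at 45 Mb, 5p15 at 18 Mb and distal 9p at 20 Mb. Total counts of 16018260 to 19357144 set the precision, and intervals cover counting error only. Every pair of replicates differed by more than sampling noise (1.73 to 8.04 in chi-square over its degrees of freedom). Members, lists and alternatives were chosen with earlier results of these data known. CPM are printed per library for members with at least 5 CPM in either group and an absolute log2 fold change of at least 1, and for the 4 with the most reads; low-count members, the values picked for the length comparison and the paralogs named were chosen after their values were seen. Of unlisted genes, up to 4 each way with at least 20 counts in each library of one group are named. Alternatives were other scalings, filters, DESeq2 1.42.0, limma 3.58.1 on log2(FPKM + 0.1) and log2(FPKM + 1), length settings, a replicate block and leaving out each library. Figures were drawn in Python 3.11.15.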

Additional observations from a re-analysis of the deposited data

How the results depend on the processing

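The median log2 fold change of the members stayed positive in each alternative run. It was 0.695 over all 48 tested genes of the interval, 0.741 on log2(FPKM + 1), 0.847 with a mean of at least 10 CPM, 1.15 with upper quartile scaling, 1.21 with the length offset, 1.35 within 1% of length and 1.41 with no low-count filter, and 1.04 to 1.13 when each library was left out. Within 1% of length, fewer genes were tested: 7 members were higher and 2 lower, and in all 1719 genes were higher and 1732 lower, against 5428 and 5564 among all tested. Other counts of calls moved by less than 1.5 times. In 9 of 610 comparisons of a member with an alternative its direction was reversed: on log2(FPKM + 0.1), log2(FPKM + 1) and the length offset, ZDHHC2 had 1.004, 0.852 and 0.998, TUSC3 had 0.0613, 0.0542 and 0.0337, and PPP3CC had 0.103, 0.0897 and 0.0825. The same replicate numbers did not mark shared deviations (correlations of 0.018, -0.025 and -0.008 across genes), and a fit with the replicate block gave a median of 1.06, with 27 members higher and 11 lower. Members under 10 counts over both groups are limited by depth.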
